A study of Rattus norvegicus with 6 samples.

Results

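Genes for the proteins of the spliceosome and for the SR proteins that guide it were followed in RNA recovered by pull-down from GH4C1 cells. They were chosen by gene name: Srsf followed by a digit, names that begin with Snrp, Sf3a, Sf3b, Prpf or U2af, Lsm or Srrm followed by a digit, and Clk1 to Clk4. The choice took 71 of the 32883 rows of the count table, and none of these names occurred more than once. The members fell into 8 classes: 12 SR protein genes, 13 Snrp genes, 9 Sf3a and Sf3b genes, 13 Prpf genes, 3 U2af genes, 13 Lsm genes, 4 Clk genes and 4 Srrm genes. Genes named Snrnp lie outside this choice and are only counted, with the other splicing genes, further on.

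GH4C1 is an established rat pituitary line of the lactotroph and somatotroph lineage, labelled wild type. All libraries came from cells treated with psoralen, which crosslinks base-paired strands of nucleic acid, and they differ only in the pool of oligonucleotides used for the pull-down. Oligo Pool A and Oligo Pool B each gave 3 libraries. According to the design text, the aim was to find RNAs that pair directly with Neat1, a long noncoding RNA of nuclear paraspeckles. The labels give neither the sequences of the pools nor a control pool, so each comparison sets pool A against pool B and does not by itself measure binding to any RNA. Input RNA was not analysed here, and the amount of a transcript in the cells and its recovery by a pool cannot be told apart, nor can a change in fewer cells and one in the RNA of each cell.

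The spliceosome removes introns from pre-mRNA. Its small nuclear ribonucleoproteins (snRNPs) carry a ring of Sm proteins on most of their RNAs and a ring of LSM proteins on U6, while SF3A, SF3B and U2AF recognise the branch site and the end of the intron. SR proteins bind exons and recruit these factors, CLK kinases phosphorylate SR proteins, and many transcripts of SR protein and CLK genes are known to keep introns and to stay in the nucleus.

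Total counts per library lay between 1826390 and 3685899. Members together held 0.775%, 0.778% and 0.833% of the counts with pool A and 0.894%, 0.927% and 0.968% with pool B. Srsf1 and Srsf5 weighed heavily in this difference. They averaged 380 and 107 CPM (counts-per-million of the library total) with pool A and 1944 and 1066 CPM with pool B. The fitted fold change favoured pool A in 48 tested members and pool B in 19. The identity of the cells was checked with markers: Prl had between 386 and 759 CPM, and Gh1 and Pou1f1 were present in every library. Of the 6 lactosomatotroph markers in the table, Prl, Chga and Scg2 passed in favour of pool A, with log2 ratios (the fitted log2 fold change of pool A over pool B) of 0.83, 0.63 and 0.77, and Chgb, a granin, passed in favour of pool B, with -2.94. Their sum, 7713 to 8631 CPM with pool A and 30512 to 37614 CPM with pool B, differed mainly through Chgb, at 3742 and 31688 CPM on average, and its direction was opposite to that of Prl, Chga and Scg2. Markers of other anterior pituitary lineages summed to between 14.6 and 26.04 CPM with pool A and between 51.5 and 54.5 CPM with pool B, most of it Lhb (11.9 and 41.96 CPM on average, log2 ratio -1.68), the only gene of that list past the threshold. Fshb and Tshb were at 0 in every library. Of the 6 markers of non-endocrine cells in the table, Col3a1 was at 0 in every library, and Mbp made up most of a sum of 33.2 to 63.2 CPM. The part of these markers in the results below was not tested.

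Of the 71 members, 67 had enough counts to be tested, and 29 of them passed an adjusted p of 0.05 when edgeR's quasi-likelihood test compared the pools. These 29 were 43.3% of the members tested, close to the 40.6% of all 11582 genes tested. Higher with pool A were 19 members (28.4%, against 18.6% of all genes tested), and higher with pool B were 10 (14.9%, against 22% of all genes tested). Among them, 15 members exceeded 2-fold in favour of pool A (11.1% of all genes tested) and 6 in favour of pool B (14.2%). More than 4-fold differences were found for 7 members in favour of pool A (3.43% of all genes tested) and for 3 in favour of pool B (4.39%). In 37 members, or 55.2%, the 3 CPM values of one pool lay wholly above those of the other, against 49.1% of all genes tested. The median log2 ratio was 0.26 over the members and 0.02 over all genes tested. The 4 members not tested were Srsf8, listed at 0 in every library, Snrpn, Snrpd2l and Lsm5, with at most 12 counts in any library. A member at 0 counts would be compatible with up to 0.814 to 1.64 CPM, depending on the library.

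**Figure D1:**
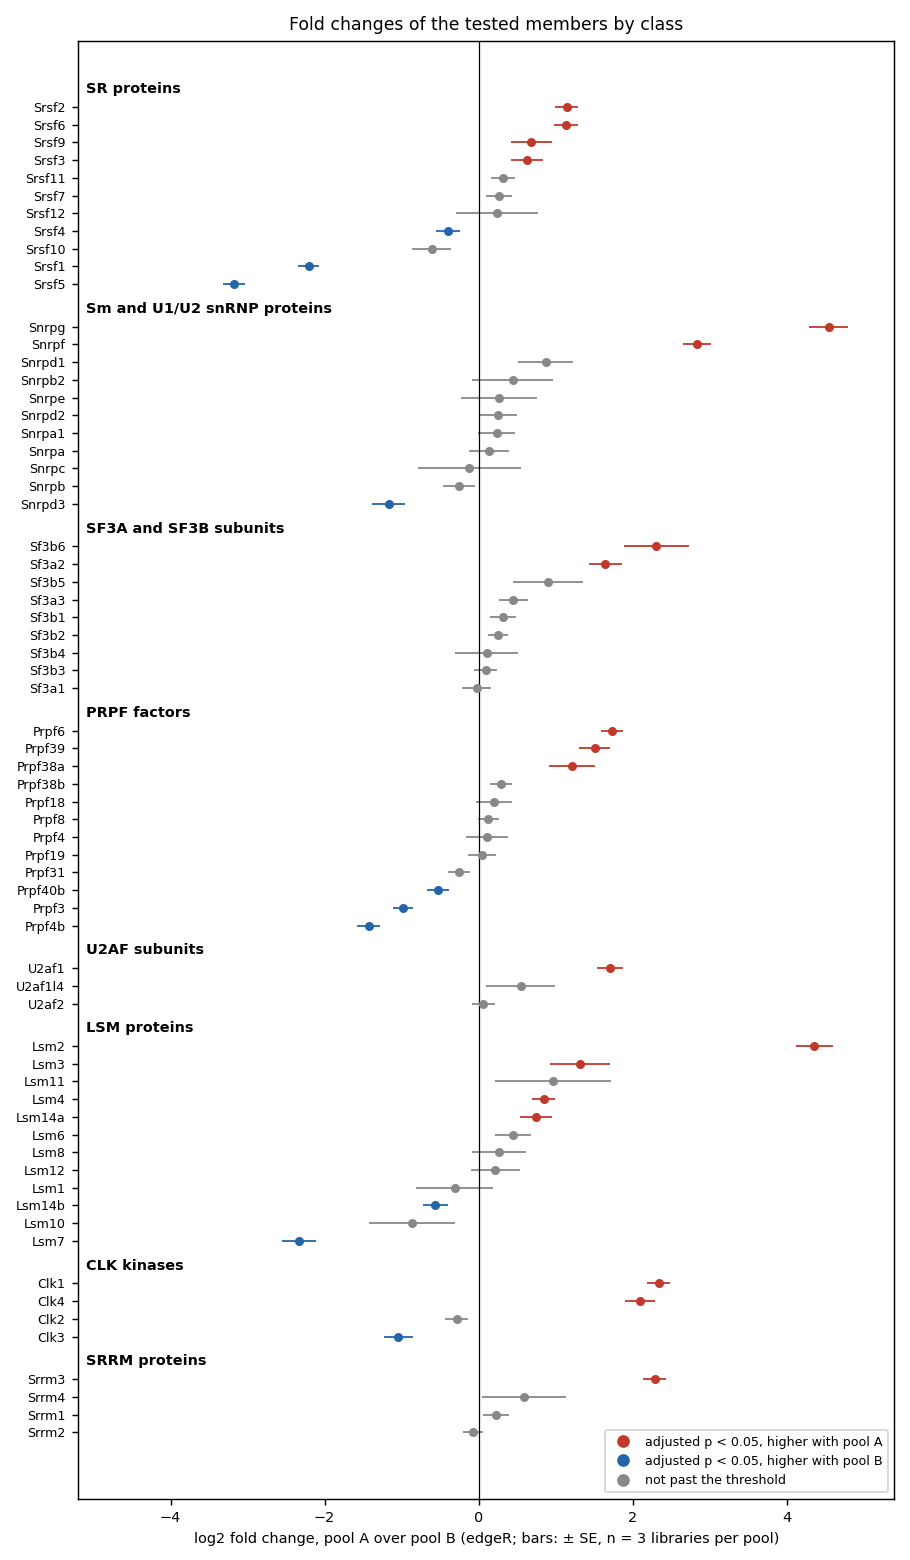
Log2 fold change of 66 of the 67 tested members, pool A over pool B, on the horizontal axis, grouped by class, with bars for the standard error of the edgeR fit on 3 libraries per pool. Red points passed the threshold in favour of pool A, blue points in favour of pool B, and the points run from -3.18 for Srsf5 to 4.55 for Snrpg.

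SR protein genes went in opposite directions. Srsf5 and Srsf1 were higher with pool B by more than 4-fold, whereas Srsf2 and Srsf6 were about 2-fold higher with pool A. Of 11 tested members, 4 were higher with pool A (36.4%), 3 were higher with pool B (27.3%) and 4 did not pass the threshold, against 18.6% and 22% of all genes tested. The class median was 0.27, and 0.12 with library totals alone as the scaling. Without pool B replicate 2, 2 members were higher with pool A. SR proteins have RNA recognition motifs and a tail rich in arginine and serine.

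Srsf5 (ENSRNOG00000005513) had 106, 106 and 108 CPM with pool A and 1031, 1003 and 1165 CPM with pool B. The pools did not overlap, and the 3 pool A values lay within 2 CPM of each other. Its log2 ratio was -3.18 ± 0.14 (SE), a 9.05-fold difference, at adjusted p = 4.76e-16 in edgeR. Srsf1 (ENSRNOG00000050323), the splicing activator first described as SF2/ASF, had 340.5, 399.8 and 401 CPM with pool A and 1692, 2067 and 2072 CPM with pool B. Every pool B library lay more than 4 times above every pool A library for this gene. The edgeR log2 ratio was -2.21 ± 0.14 (SE), or 4.62-fold, with an adjusted p of 4.75e-13.

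Both rows beside Srsf1 in the table were also higher with pool B. Vezf1, a zinc finger gene whose interval overlaps that of Srsf1 in the RefSeq annotation of assembly GRCr8, had a log2 ratio of -2.25 ± 0.15 (SE) and adjusted p = 1.32e-12 in edgeR. It received between 0.148 and 0.218 counts per count of Srsf1 with pool A and between 0.185 and 0.198 with pool B. Dynll2, a dynein light chain gene in the row on the other side, had -1.65 ± 0.13 (SE), with between 0.348 and 0.465 counts per count of Srsf1 with pool A and between 0.242 and 0.299 with pool B. Whether reads of these rows were shared was not tested. The rows beside Srsf5, Susd6 and Slc10a1, had log2 ratios of 1.42 and -0.97, both past the threshold and in opposite directions.

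In favour of pool A, Srsf2 (ENSRNOG00000000248), also known as SC35 and used as a marker of nuclear speckles, had 185, 208 and 208 CPM with pool A and 91.7, 105 and 104 CPM with pool B. All pool A libraries were above all pool B libraries, and the log2 ratio was 1.14 ± 0.15 (SE) at adjusted p = 3.48e-07 in edgeR. Srsf6 (ENSRNOG00000006380) had 332, 369 and 329.7 CPM with pool A and 209, 134 and 174 CPM with pool B, with no overlap. Its log2 ratio of 1.14 ± 0.15 (SE) came with adjusted p = 8.53e-07 in edgeR. Srsf3, one of the smallest SR proteins, had 50.2, 51.8 and 58.7 CPM with pool A and 37.5, 34.5 and 42.4 CPM with pool B, and its log2 ratio was 0.63 ± 0.21 (SE) at adjusted p = 0.0176 in edgeR.

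The differences of Srsf9 and Srsf4 lay close to the threshold. Srsf9 had 33.6, 31.6 and 29.8 CPM with pool A and 17.04, 22.4 and 26.1 CPM with pool B and a log2 ratio of 0.69 ± 0.27 (SE), at adjusted p = 0.043 in edgeR. The values of Srsf4 were 125, 148 and 149 CPM with pool A and 159.9, 219 and 236 CPM with pool B, with a log2 ratio of -0.40 ± 0.16 (SE) and adjusted p = 0.0438 in edgeR. The pools did not overlap for either gene, but the gaps were small, 29.8 against 26.1 CPM for Srsf9 and 149 against 159.9 CPM for Srsf4. The call of Srsf9 was lost in 4 of the 6 fits that left out a library (adjusted p from 0.0724 to 0.161, without pool A replicate 1 or 2 or pool B replicate 1 or 2). The call of Srsf4 was lost in 5 of them, all but the fit without pool B replicate 1, where the adjusted p was 0.006, and Srsf3 lost its call without pool B replicate 2 and with library totals alone as the scaling.

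Srsf10, Srsf7, Srsf11 and Srsf12 did not pass. Of these, Srsf10 passed with library totals alone as the scaling, with limma-voom and without pool B replicate 2, and Srsf11 with upper-quartile scaling and without pool B replicate 1. Srsf10, which can repress splicing when dephosphorylated, had 21.7, 26.1 and 31.7 CPM with pool A and 47.4, 31.8 and 52.97 CPM with pool B, with a log2 ratio of -0.61 ± 0.25 (SE) and adjusted p = 0.0544 in edgeR. Its ranges nearly touched, at 31.7 CPM in the highest pool A library and 31.8 CPM in the lowest pool B library. Srsf7 and Srsf11 had 0.27 ± 0.16 (SE) and 0.32 ± 0.16 (SE), and Srsf12, the smallest change of the class, had 0.24 ± 0.53 (SE) on 9 to 36 counts per library.

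The make-up of the SR protein counts changed with these differences. Srsf1 and Srsf5 together held 31.1%, 31.1% and 31.8% of the counts of all SR protein genes with pool A, and 76.8%, 79.6% and 78.9% with pool B. The widest 95% Wilson interval of these shares, which covers counting error only, ran from 29.7% to 32.6% for pool A replicate 2. Srsf6 held 22.2% ± 1.3 in the pool A libraries, against 4.54% ± 1.24 in those of pool B (SD, n = 3 each). Srsf2 held 12.9% ± 0.10 in the pool A libraries, against 2.62% ± 0.094 in those of pool B (SD, n = 3 each). The summed level of the class was 1434, 1625 and 1597 CPM with pool A and 3544, 3857 and 4103 CPM with pool B, while the class median of the fold changes lay slightly in favour of pool A. These are shares of counts, which also depend on transcript length, and the shares of Srsf2 and Srsf6 also depend on how much Srsf1 and Srsf5 take: their own fitted differences were 2.21-fold and 2.20-fold.

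**Figure D2:**
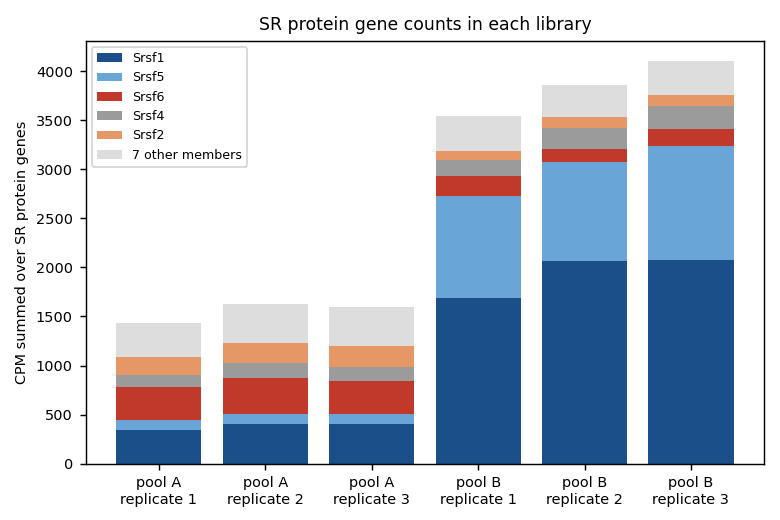
CPM summed over the 12 SR protein genes in each of the 6 libraries, stacked by gene, with the vertical axis from 0. Srsf1 and Srsf5 (blue) fill 31.1% to 31.8% of the bars of pool A and 76.8% to 79.6% of those of pool B.

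The CLK kinases, which phosphorylate SR proteins in the nucleus, also divided. With pool A, Clk1 and Clk4 exceeded pool B by more than 4-fold, Clk3 was about 2-fold higher with pool B, and Clk2 did not pass the threshold. In this small class that is 50% and 25%, against 18.6% and 22% of all genes tested. Clk1 (ENSRNOG00000025768) had 506, 505 and 518 CPM with pool A and 113, 85.4 and 134 CPM with pool B. The pool A libraries differed by less than 13 CPM and lay far above pool B, with a log2 ratio of 2.34 ± 0.15 (SE) and adjusted p = 1.06e-12 in edgeR.

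Clk4 (ENSRNOG00000003714), the closest paralog of Clk1, had 140.3, 128 and 119 CPM with pool A and 33.7, 25.7 and 39.7 CPM with pool B. Its log2 ratio was 2.10 ± 0.19 (SE), at adjusted p = 8.35e-10 in edgeR, and the ranges did not overlap. The row next to Clk4, named 7SK, at 7.57 CPM with pool A and 1.28 CPM with pool B on average, had a log2 ratio of 2.71. Clk4 received between 0.229 and 0.277 counts per count of Clk1 with pool A and between 0.297 and 0.301 with pool B, ranges that lay close together without overlapping. Reads that fit both paralogs may have been divided or dropped in the counting, which is not stated.

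Clk3 (ENSRNOG00000030126) had 52.6, 47.9 and 72.8 CPM with pool A and 126, 106 and 159 CPM with pool B, lower in every pool A library. Its log2 ratio of -1.04 ± 0.18 (SE) had adjusted p = 4.14e-05 in edgeR. Clk2 had 95.2, 87.8 and 108 CPM with pool A and 136, 124 and 131 CPM with pool B, again with no overlap, but its log2 ratio was -0.28 ± 0.15 (SE) after TMM scaling and edgeR gave adjusted p = 0.144. With library totals alone as the scaling it was -0.42 and passed (adjusted p = 0.0423). Clk1 and Clk4 together made up 80.5% ± 2.4 of the CLK counts in the pool A libraries, against 35.3% ± 2.5 in those of pool B (SD, n = 3 each).

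**Figure D3:**
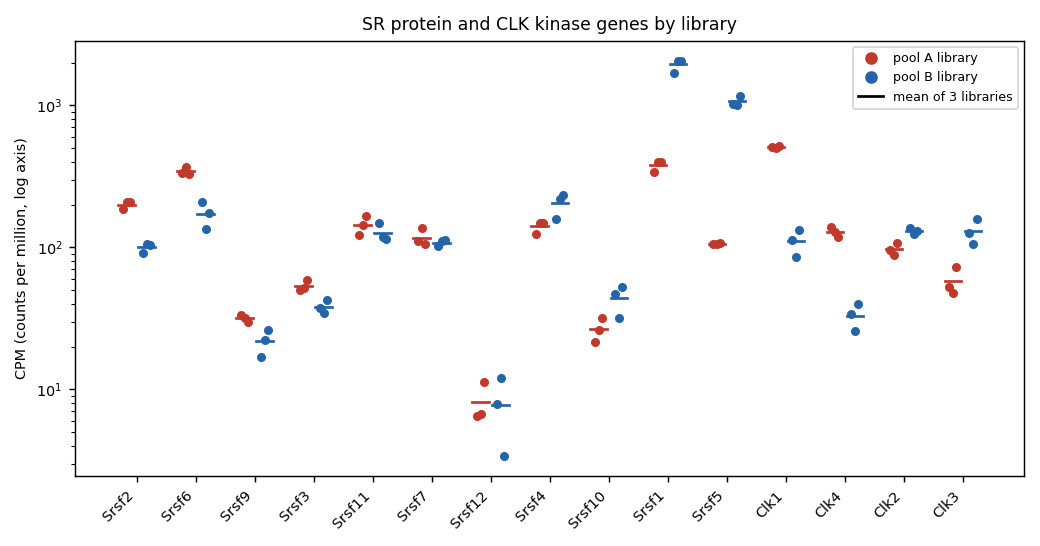
CPM (log axis) of 11 SR protein genes and 4 CLK kinase genes, with a point for each library and a line at the mean of 3. Srsf1, Srsf5 and Clk3 sit higher with pool B (blue), Srsf2, Srsf6, Clk1 and Clk4 higher with pool A (red), and Srsf7, Srsf11 and Srsf12 overlap.

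Among the Snrp genes, most of which encode the ring of Sm proteins, Snrpg and Snrpf were far higher with pool A, Snrpd3 was higher with pool B, and the other 8 tested did not pass. The shares, 18.2% and 9.09%, stood against 18.6% and 22% of all genes tested, and the class median was 0.25. Snrpg (ENSRNOG00000016507) had 181, 194 and 145 CPM with pool A and 11.2, 8.76 and 4.54 CPM with pool B, a 23.4-fold difference. This was the largest fold change of all members, 4.55 ± 0.25 (SE) on the log2 scale at adjusted p = 2.67e-14 in edgeR. Its pool B counts were 33, 16 and 12, and the log2 ratio ranged from 4.24 to 4.92 over the alternatives tried.

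Snrpf (ENSRNOG00000005556) had 211, 257 and 225 CPM with pool A and 27.6, 44.3 and 37.1 CPM with pool B, with a log2 ratio of 2.83 ± 0.18 (SE) and adjusted p = 6.24e-13 in edgeR. The clone-named row after it, AABR07056643.2, differed in the same direction by 3.14 ± 0.28 (SE). It received between 0.25 and 0.314 counts per count of Snrpf with pool A and between 0.0988 and 0.321 with pool B. Ccdc38, whose interval overlaps that of Snrpf in GRCr8, also passed, with 1.90 ± 0.62 (SE) on 3 to 30 counts per library. Whether these rows share reads was not tested. Together with Snrpg, Snrpf dominated the class with pool A: Snrpf held 37.3% ± 2.0 (SD, n = 3) of its counts and Snrpg 28.07% ± 3.61 (SD, n = 3), against 11.96% ± 2.35 and 2.72% ± 1.19 (SD, n = 3) with pool B.

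Snrpd3 (ENSRNOG00000050410) went the other way, with 28.5, 30.8 and 26.4 CPM with pool A and 71.9, 61.3 and 79.1 CPM with pool B. No library of pool A reached the level of a pool B library, the log2 ratio was -1.17 ± 0.21 (SE), and edgeR gave adjusted p = 6.35e-05. Lrrc75b, in the row before it, had -1.17 ± 0.31 (SE) and also passed, with between 0.402 and 0.962 counts per count of Snrpd3 in the 6 libraries.

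The remaining ring members did not pass the threshold. Snrpd1 had 19.3, 20.2 and 20.7 CPM with pool A and 15.00, 14.2 and 7.19 CPM with pool B, with a log2 ratio of 0.87 ± 0.36 (SE) and adjusted p = 0.0516 in edgeR, and it passed under 5 alternatives, among them the fit without pool B replicate 1. Snrpb, Snrpd2 and Snrpe had -0.25 ± 0.21 (SE), 0.25 ± 0.25 (SE) and 0.26 ± 0.50 (SE). Genes for subunits of the same ring thus passed the threshold in opposite directions. Snrpa, the A protein of the U1 snRNP, and Snrpc, its C protein, had 0.14 ± 0.26 (SE) and -0.12 ± 0.67 (SE). Snrpa1 and Snrpb2, which encode the A′ and B″ proteins of the U2 snRNP, had 0.24 ± 0.24 (SE) and 0.44 ± 0.53 (SE). Snrpn, an imprinted gene for an Sm protein of neurons, had 0 to 2 counts with pool A and 2 to 7 counts with pool B, too few to test.

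LSM genes differed in both directions as well. Lsm2 to Lsm8 encode the ring of U6, and of these Lsm2, Lsm3 and Lsm4 were higher with pool A, Lsm7 was higher with pool B, Lsm6 and Lsm8 did not pass, and Lsm5 was not tested. Over the class, 4 of 12 tested members passed in favour of pool A and 2 in favour of pool B (1 without pool A replicate 2), with a median of 0.35. These are 33.3% and 16.7%, against 18.6% and 22% of all genes tested.

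Lsm2 (ENSRNOG00000048725) had 132, 118 and 115 CPM with pool A and 5.45, 6.57 and 7.57 CPM with pool B, a 20.6-fold difference. Its log2 ratio was 4.36 ± 0.24 (SE) at adjusted p = 2.02e-14 in edgeR, resting on 16, 12 and 20 counts in the pool B libraries. Lsm7 (ENSRNOG00000019552) showed the reverse, with 17.6, 18.6 and 24.5 CPM with pool A and 98.8, 89.2 and 148 CPM with pool B. Its lowest pool B value was more than 3 times its highest pool A value, for a log2 ratio of -2.34 ± 0.22 (SE) and adjusted p = 1.47e-09 in edgeR. Sppl2b, in the row before Lsm7, had a log2 ratio of 1.61, opposite in sign.

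Lsm4 had 179.6, 142 and 166 CPM with pool A and 97.5, 103 and 99.1 CPM with pool B, with a log2 ratio of 0.85 ± 0.15 (SE) and adjusted p = 4.32e-05 in edgeR. For Lsm3 the values were 16.5, 27.3 and 19.4 CPM with pool A and 5.11, 11.5 and 11.7 CPM with pool B, a log2 ratio of 1.32 ± 0.39 (SE) at adjusted p = 0.00768 in edgeR, and the call was lost without pool A replicate 2 (adjusted p = 0.0676). Lsm6 and Lsm8 had 0.44 ± 0.24 (SE) and 0.26 ± 0.35 (SE), and their ranges overlapped. Lsm1, which takes the place of Lsm8 in the cytoplasmic ring of mRNA decay, had -0.31 ± 0.50 (SE) on 14 to 32 counts per library.

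The members outside both rings included Lsm14a and Lsm14b, paralogs for proteins of cytoplasmic P-bodies, which differed in opposite directions. Lsm14a had 102, 91.4 and 78.4 CPM with pool A and 40.2, 68.4 and 71.9 CPM with pool B, with 0.75 ± 0.21 (SE) on the log2 scale and adjusted p = 0.00447 in edgeR. Lsm14b had 79.5, 62.9 and 91.3 CPM with pool A and 121, 127 and 132 CPM with pool B, with -0.56 ± 0.16 (SE) and adjusted p = 0.00668 in edgeR, a call that was lost without pool A replicate 2 (adjusted p = 0.064). Lsm10 and Lsm11, subunits of the U7 snRNP of histone mRNA processing, had -0.87 ± 0.56 (SE) and 0.97 ± 0.75 (SE) and did not pass, on 2 to 23 counts per library. Lsm12 had 0.22 ± 0.32 (SE).

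**Figure D4:**
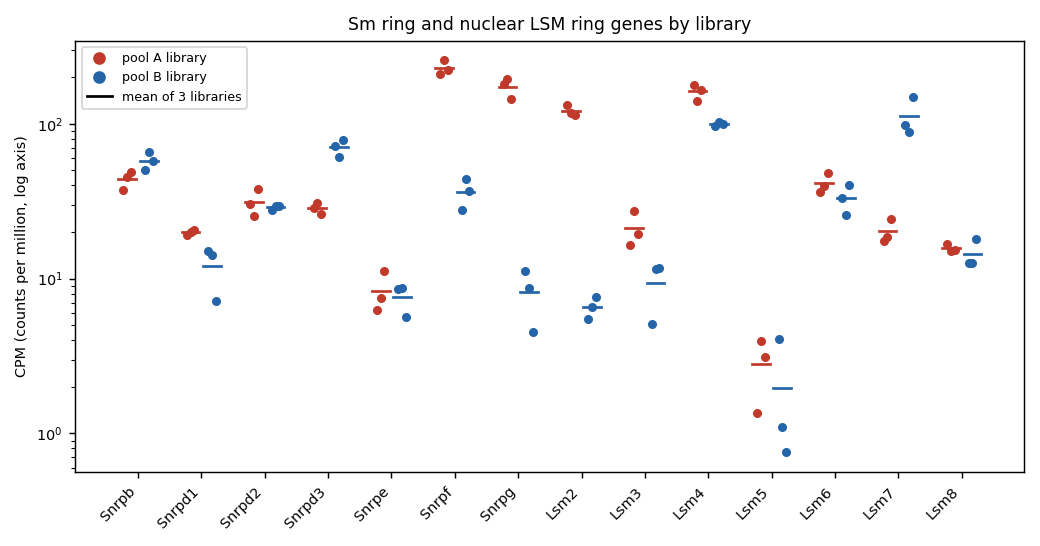
CPM (log axis) of the 7 Sm ring genes and of Lsm2 to Lsm8 in each library, with a line at the mean of 3 libraries per pool. Snrpf, Snrpg and Lsm2 stand far higher with pool A (red), Snrpd3 and Lsm7 higher with pool B (blue), and Snrpd2, Snrpe, Lsm6 and Lsm8 overlap.

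Of the SF3A and SF3B genes, Sf3b6 and Sf3a2 were higher with pool A and the other 7 did not pass. Of these, Sf3a3 passed under 4 alternatives, Sf3b1 under 2, and Sf3b2 and Sf3b5 under 1 each. Sf3a1 alone had a negative log2 ratio, which turned positive (0.078) with upper-quartile scaling. The class shares, 22.2% in favour of pool A and 0% in favour of pool B, stood against 18.6% and 22% of all genes tested. The class median was 0.32. Sf3b6 (ENSRNOG00000046172), the p14 subunit that contacts the branch site, had 24.7, 21.8 and 25.7 CPM with pool A and 3.41, 2.74 and 9.46 CPM with pool B. The ranges did not overlap and the log2 ratio was 2.31 ± 0.42 (SE), at adjusted p = 5.96e-05 in edgeR. Its pool B counts were 10, 5 and 25, and without pool B replicate 3 the log2 ratio was 3.07.

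Sf3a2 (ENSRNOG00000019349) had 103, 93.3 and 85.3 CPM with pool A and 38.9, 38.9 and 22.7 CPM with pool B, all pool A libraries being more than 2 times any pool B library. Its log2 ratio was 1.65 ± 0.21 (SE) at adjusted p = 3.32e-07 in edgeR. The next row, Plekhj1, overlaps Sf3a2 in GRCr8 and did not pass, with -0.29 ± 0.25 (SE). The other subunits of SF3A, Sf3a1 and Sf3a3, had -0.025 ± 0.18 (SE) and 0.45 ± 0.19 (SE), the latter at adjusted p = 0.0563 in edgeR. Sf3b1, the large scaffold of SF3B, had 100.4, 107 and 120.2 CPM with pool A and 114, 81.6 and 93.1 CPM with pool B, which overlapped, and a log2 ratio of 0.32 ± 0.17 (SE). Sf3b2, Sf3b3, Sf3b4 and Sf3b5 ranged from 0.092 (Sf3b3) to 0.91 (Sf3b5, on 10 to 58 counts per library).

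U2AF reads the intron's end as a dimer of a large and a small subunit, and only the small subunit's gene passed here. In this small class that is 33.3% in favour of pool A and 0% in favour of pool B, against 18.6% and 22% of all genes tested. U2af1 (ENSRNOG00000045860), the small subunit, had 153, 139 and 186 CPM with pool A and 46.7, 55.8 and 59.4 CPM with pool B. Its log2 ratio was 1.70 ± 0.17 (SE), or 3.26-fold, at adjusted p = 2.39e-09 in edgeR. U2af2, the large subunit, had 149, 127 and 147 CPM with pool A and 159, 163 and 128 CPM with pool B, which overlapped, with a log2 ratio of 0.063 ± 0.15 (SE) and adjusted p = 0.776 in edgeR. U2af1l4, a paralog of the small subunit, had 0.55 ± 0.45 (SE). The difference between the fold changes of U2af1 and U2af2 was not tested.

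Prpf genes, which encode factors of the tri-snRNP and of other spliceosomal steps, passed in equal numbers in the 2 directions. Of 13, all tested, 3 were higher with pool A, 3 were higher with pool B and 7 did not pass, which is 23.1% in each direction against 18.6% and 22% of all genes tested. The class median of 0.10 turned to -0.0258 with library totals alone as the scaling. Prpf6 (ENSRNOG00000051498), which bridges the parts of the tri-snRNP, had 649.5, 484 and 594 CPM with pool A and 211, 199 and 163 CPM with pool B. Its log2 ratio was 1.74 ± 0.14 (SE) at adjusted p = 7.48e-11 in edgeR, and no pool B library came near the lowest pool A library. Prpf39, a factor associated with the U1 snRNP, had 101, 132 and 100.1 CPM with pool A and 52.8, 33.4 and 41.99 CPM with pool B, a log2 ratio of 1.51 ± 0.20 (SE) at adjusted p = 6.05e-07 in edgeR. Togaram1, in the row before Prpf39, had 0.87 ± 0.31 (SE) and also passed. Prpf38a had 37.4, 31.6 and 26.04 CPM with pool A and 17.4, 17.5 and 10.97 CPM with pool B, a log2 ratio of 1.21 ± 0.30 (SE) at adjusted p = 0.00164 in edgeR. Its paralog Prpf38b had 0.29 ± 0.14 (SE) and did not pass.

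Higher with pool B was Prpf4b (ENSRNOG00000016705), a kinase of the spliceosome, with 103, 112 and 101 CPM with pool A and 364, 274 and 297 CPM with pool B. All pool B libraries were more than 2 times any pool A library, the log2 ratio was -1.42 ± 0.15 (SE), and edgeR gave adjusted p = 9.17e-09. Prpf3, a protein of the U4/U6 part of the tri-snRNP, had 240.4, 248 and 259 CPM with pool A and 461, 609 and 564 CPM with pool B, a log2 ratio of -0.98 ± 0.13 (SE) at adjusted p = 8.69e-07 in edgeR. Prpf40b, a U1-associated protein, had 181, 189 and 273 CPM with pool A and 343, 325 and 352 CPM with pool B, a log2 ratio of -0.53 ± 0.14 (SE) at adjusted p = 0.00338 in edgeR. Fmnl3, in the row after Prpf40b, had -1.13 ± 0.17 (SE) and also passed. Mcrs1, whose interval overlaps that of Prpf40b in GRCr8, passed in the opposite direction, with 0.66 ± 0.21 (SE). Whether these rows share reads was not tested.

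Of the Prpf genes that did not pass, Prpf8, which lines the catalytic centre, had 232, 254 and 266 CPM with pool A and 234, 239 and 288 CPM with pool B, overlapping ranges and a log2 ratio of 0.13 ± 0.14 (SE). Prpf19, the ubiquitin ligase of the complex that bears its name, had 0.046 ± 0.18 (SE). Prpf31 and Prpf4, both of the tri-snRNP, had -0.25 ± 0.15 (SE) and 0.10 ± 0.27 (SE), and Prpf18, a factor of the final catalytic step, had 0.20 ± 0.23 (SE).

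In the last class, Srrm3 was the only gene of 4 past the threshold. That is 25% in favour of pool A and 0% in favour of pool B, against 18.6% and 22% of all genes tested. Srrm3 (ENSRNOG00000001439), a regulator of microexons in neurons and endocrine cells, had 334, 319 and 287 CPM with pool A and 73.6, 72.8 and 67.3 CPM with pool B, with no overlap. Its log2 ratio was 2.29 ± 0.15 (SE), or 4.88-fold, at adjusted p = 9.30e-13 in edgeR. Srrm4, its paralog with a similar role in neurons, had 8 to 48 counts per library and 0.59 ± 0.55 (SE). Srrm2, a large scaffold of nuclear speckles, had 737, 749.8 and 955 CPM with pool A and 955, 961 and 916 CPM with pool B and a log2 ratio of -0.073 ± 0.13 (SE). Srrm1 had 0.23 ± 0.16 (SE). The ranges of Srrm1 and Srrm2 overlapped between the pools.

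**Figure D5:**
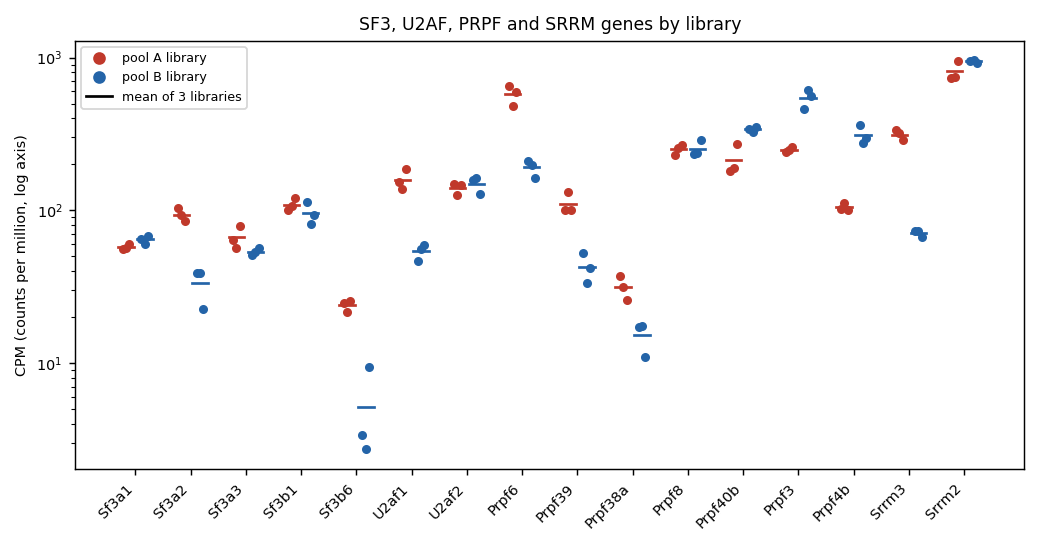
CPM (log axis) of 16 SF3, U2AF, PRPF and SRRM genes in each library, with a line at the mean of 3 libraries per pool. Sf3a2, Sf3b6, U2af1, Prpf6, Prpf39, Prpf38a and Srrm3 lie higher with pool A (red), Prpf40b, Prpf3 and Prpf4b higher with pool B (blue), and Sf3b1, U2af2, Prpf8 and Srrm2 overlap.

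Other genes of the splicing pathway were counted in 6 lists of 104 names, of which 101 were in the table and 99 were tested. In these lists 36 genes passed the threshold in favour of pool A and 19 in favour of pool B (36.4% and 19.2%, against 18.6% and 22% of all genes tested). The median log2 ratio was 0.34. Their fold changes ran from -2.14 to 3.47, a narrower range than that of the members.

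Among other snRNP and tri-snRNP proteins, 9 of 22 tested passed in favour of pool A (40.9%) and 6 in favour of pool B (27.3%). Here and in the next list, these shares stand against 18.6% and 22% of all genes tested. Pdcd7, a protein of the minor spliceosome, had 63.3 ± 6.7 CPM (pool A) against 6.45 ± 2.51 CPM (pool B, both SD, n = 3), and its log2 ratio was 3.47 ± 0.29 (SE) at adjusted p = 1.36e-10 in edgeR. Sart3, a recycling factor of U4/U6, had 140.5 ± 17.7 CPM and 565 ± 54 CPM (SD, n = 3), a log2 ratio of -1.86 ± 0.14 (SE). Usp39 had -1.49 ± 0.26 (SE). Of the 16 branch site and U2-associated factors, 8 passed in favour of pool A (50%) and 3 in favour of pool B (18.8%). With library totals alone as the scaling 5 and 4 did, and without any one library 6 to 7 and 3 did. Ddx39b, a helicase of splicing and mRNA export, had 2511 ± 48 CPM (pool A) against 348 ± 32 CPM (pool B, both SD, n = 3), and its log2 ratio was 3.002 ± 0.14 (SE) at adjusted p = 1.48e-15 in edgeR. Htatsf1 and Rbm10 had 1.60 ± 0.14 (SE) and 1.42 ± 0.14 (SE).

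Of 23 Prp19 complex and catalytic-step factors, 8 passed in favour of pool A (34.8%) and 5 in favour of pool B (21.7%). Of all genes tested, 18.6% and 22% did. The count of 5 was 3 when A replicate 3 or B replicate 3 was dropped and 4 when another library was. Dhx8, a helicase that releases spliced mRNA, had 54.7 ± 13.3 CPM (pool A) against 265 ± 43 CPM (pool B, both SD, n = 3), a log2 ratio of -2.14 ± 0.17 (SE) at adjusted p = 4.42e-11 in edgeR. Bcas2 and Cwc22 had 1.35 ± 0.31 (SE) and 1.02 ± 0.18 (SE). Of 19 tested SR protein kinases, import factors and SR-related proteins, 8 passed for pool A (42.1%) and 3 for pool B (15.8%). These shares too stand against 18.6% and 22% of all genes tested. Tra2b and Tra2a, paralogous SR-like activators, had 2.55 ± 0.14 (SE) and 2.36 ± 0.14 (SE), with edgeR adjusted p-values of 1.51e-14 and 1.48e-13. Thrap3 had -1.40 ± 0.13 (SE), and the SR protein kinases Srpk1 and Srpk2 had 0.20 ± 0.16 (SE) and 0.33 ± 0.15 (SE) and did not pass.

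Of 15 tested snRNP assembly factors, 2 passed in favour of pool A (13.3%) and 1 in favour of pool B (6.67%), against 18.6% and 22% of all genes tested. The count of 2 was 0 without pool A replicate 2, 1 without any one of the other libraries except pool A replicate 3, and 0 with library totals alone as the scaling. Phax, the adaptor that exports snRNAs from the nucleus, had a log2 ratio of -1.74 ± 0.27 (SE) at adjusted p = 5.08e-06 in edgeR, and Strap had 0.75 ± 0.27 (SE), a call that was lost in 3 fits, those without A replicate 2, B replicate 2 and B replicate 3 (adjusted p from 0.0632 to 0.192). Of 4 genes for the core of the exon junction complex, Magoh was higher with pool A by 2.20 ± 0.60 (SE) and Eif4a3 higher with pool B, with -1.14 ± 0.18 (SE). That is 25% of the list in each direction. The count in favour of pool B was 2 when A replicate 2 was dropped, and also with limma-voom and with library totals alone as the scaling. The value of Magoh rests on 16, 5 and 1 counts in the pool B libraries and was 3.23 without pool B replicate 1.

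Rows beside the members past the threshold were also counted. Of the 29 members past the threshold, 7 (24.1%) had an adjacent row of the table past the threshold in the same direction, against 25.1% of all 4700 genes past it. An adjacent row in the opposite direction was found for 6 members (20.7%), against 17.9%. In the RefSeq annotation of GRCr8, where all 71 members were matched by symbol, 29 overlapped another gene. Of the 42 others, 40 were tested, of which 11 (27.5%) passed in favour of pool A and 7 (17.5%) in favour of pool B, against 18.6% and 22% of all genes tested.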

How the data were processed

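RNA recovered by pull-down with Oligo Pool A or B was measured in 3 libraries each. Per the submitters' processing notes, the tools were STAR and featureCounts; their versions, the genome build, the annotation and the strand setting of the counting are not given in the sources used here. The deposited values are whole-number counts per gene, with no normalization by the authors. A mean per pool, also deposited in counts, was not used.

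All genes were fitted together with edgeR 4.0.16 in R 4.3.3: TMM scaling, the filter by group, the quasi-likelihood test with the pool as the only term, and Benjamini-Hochberg adjustment over the 11582 genes tested, threshold 0.05. Standard errors follow from the fold change and the F statistic. Fold changes are on the TMM scale, CPM on library totals, so small differences can vary between them. In simulated counts for the same comparison (11582 genes, 11283 tested) the test recovered 47.9% of 96 genes changed 2-fold and 85% of 100 changed 4-fold. Of its calls, 4.38% were false. Far more genes passed in the data (40.6% of those tested) than were changed in the simulation. These rates therefore do not give the sensitivity of the real comparison.

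The members and lists were chosen with earlier results of these data known. In each class, up to 3 members in each direction past the threshold, with ranges that do not overlap and a mean of at least 10 counts, were given with full statistics, with the member of smallest change. The values of 1 tested member are not reported here, though it is in the counts. In the lists, up to 3 genes were named by the same conditions, and other members by their values. Srpk1 and Srpk2 were added after their values were seen. Replicates of a pool differed beyond sampling noise (chi-square per degree of freedom of 5.86 to 20.7). Nothing says they came from separate cultures, so p-values measure only the spread between these libraries, which may be technical. A depth of 1826390 to 3685899 counts limits genes with few counts, and counting intervals treat reads as independent molecules. No sequences or coordinates are given, because the table names neither.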

Additional observations from a re-analysis of the deposited data

How the results depend on the processing

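The alternatives were set out with the design, except the restriction to members that overlap no other gene, which was chosen after seeing the data and left 11 members in favour of pool A and 7 in favour of pool B, by its own construction fewer. Over the other alternatives the counts of 19 and 10 members stayed within 1.5 times. Without any one library they were 17 to 21 and 8 to 10. With the replicate block, 18 and 10 members passed and the call of Srsf9 was lost (adjusted p = 0.0569 in edgeR). Deviations of same-numbered libraries from their pool means showed little correlation over 11582 genes (r of 0.041, -0.019 and 0.02). The labels do not say whether the numbers pair samples, and these r values cannot show that they do not. Scaling by total counts moved the median of all genes by -0.14 and by upper-quartile factors by 0.10.

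Of 272 class counts recomputed, 263 stayed within 1.5 times. SR protein genes higher with pool A numbered 2 with total counts, with an adjusted p under 0.01 and against a 1.5-fold change. With total counts, 2 CLK genes were higher with pool B. With upper-quartile factors, 5 SF3 genes were higher with pool A. Against a 1.5-fold change, LSM genes numbered 2 and 1. When a library was left out, the SR protein genes in favour of pool A numbered 2 to 4 and the LSM genes in favour of pool B 1 to 2. With total counts the class medians were 0.12 (Snrp), 0.18 (SF3), 0.40 (U2AF), 0.26 (SRRM), 0.12 (SR proteins), 0.22 (LSM), 0.77 (CLK) and -0.0258 (PRPF, a change of sign). The Snrp median was 0.35 with upper-quartile factors, and the SRRM median was 0.57 with limma-voom and 0.25 where each library had to hold 10 counts. Without a library, the medians ranged from 0.15 to 0.36 (Snrp), from 0.21 to 0.46 (SF3), from 0.29 to 0.97 (U2AF), from 0.14 to 0.78 (SRRM) and from 0.063 to 0.17 (PRPF, without pool B replicate 2 and replicate 3). The cause was not tested.

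Of 846 refits of named genes, 805 kept direction and side of the threshold, 31 lost the call, 1 gained it and 9 changed sign, all 9 in genes that did not pass. These were U2af2 (-0.075 with total counts, -0.035 without pool B replicate 3, up to 0.13 without others), Sf3a1 (0.078 with upper-quartile factors, 0.0099 without pool A replicate 3, 0.023 without pool B replicate 3, down to -0.084 without others), Srrm2 (0.030 with upper-quartile factors), Snrpc (0.18 without pool A replicate 2, 0.36 without pool B replicate 3, down to -0.49 without others) and Srsf12 (-0.12 without pool B replicate 3, up to 0.65 without others). Besides the library exclusions given above, Srsf9 lost its call with total counts (adjusted p = 0.118) and with no filter (0.0639), and Srsf4 with DESeq2 1.42.0 size factors (0.0552), the DESeq2 test (0.0646) and upper-quartile factors (0.138). Strap lost its call with total counts (0.0723) and limma-voom (0.0501). Srsf3 lost its call with total counts. With the threshold of 0.01, Srsf3, Srsf9, Srsf4 and Strap did not pass, and against a 1.5-fold change neither did these, Lsm4, Lsm14a, Lsm14b and Prpf40b. Members that passed under an alternative only were Snrpd1 (5 alternatives), Sf3a3 (4), Srsf10 (3), Srsf11 and Sf3b1 (2 each), and Clk2, Prpf38b, Sf3b2 and Sf3b5 (1 each). Of 204 recomputed counts of the pathway lists, 179 stayed within 1.5 times. Of the 25 others, 8 were fits without a library. The remaining 17 came with a 1.5-fold change (7), total counts (3), the threshold of 0.01 (3), limma-voom (2), the DESeq2 test (1) and the filter of 10 counts (1). Under the filter of 10 counts, Sf3b6 and Magoh were not tested. Depth limits the members with few counts.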
